A study of Homo sapiens with 4 samples.

Results

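CDK inhibitors and the interphase cyclin-dependent kinases were examined in U251 cells after knockdown of PRMT3. U251 is an established human glioblastoma (GBM) cell line, and PRMT3 is a protein arginine methyltransferase. The set held 10 genes chosen by name. They were the CIP/KIP inhibitors CDKN1A, CDKN1B and CDKN1C, the INK4 inhibitors CDKN2A, CDKN2B, CDKN2C and CDKN2D, and the kinases CDK2, CDK4 and CDK6. Of the 10 genes, 8 had a row among the 15575 genes of the count table, and 7 passed the filter on low counts among 13172 genes tested.

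RNA sequencing compared 2 Ctrl libraries, from U251 cells given the pGreen control lentivirus, with 2 PRMT3-KD libraries, from U251 cells given a lentiviral shRNA against PRMT3. Cells were taken 72 h after transduction. All libraries came from 1 cell line, and the identity of the shRNA is not given in the sources used here. The labels do not say that the libraries of a group came from separate cultures, so the p-values measure only the spread between these samples, which may be technical. In bulk RNA, fewer cells that express a gene and less RNA per cell cannot be told apart.

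Total counts per library ranged from 24804250 to 29756313. PRMT3 itself had 535 counts in each Ctrl library against 77 and 45 after knockdown, with a log2 fold change of -3.08 (adjusted p = 0.0177, edgeR). The glial and GBM markers VIM, CD44, NES, SOX9, SOX2 and EGFR were all expressed in every library, and SOX9 was past the threshold, lower in PRMT3-KD cells (244 and 244 CPM against 146 and 164 CPM, adjusted p = 0.0215, edgeR). Here CPM are counts scaled to the library total after edgeR's TMM factors. Of the 10 genes of this list 7 averaged over 10 CPM in Ctrl, and the list summed to between 7659 and 8743 CPM. GFAP, the intermediate filament of astrocytes, had 363 and 392 counts in Ctrl against 32 and 153 after knockdown (adjusted p = 0.0958, edgeR). AQP4, an astrocyte water channel, had 0 counts in 3 libraries and 1 count in the other. Among markers of other cell types, the epithelial list summed to between 0.433 and 0.763 CPM, and the haematopoietic list to between 24.6 and 30.3 CPM, nearly all of it CD68. PTPRC, which marks blood cells, had 2 to 7 counts in a library, and CD3E, EPCAM and PECAM1 had no row. The 4 endothelial markers summed to between 19.6 and 37.9 CPM, and 1 of them, KDR, was past the threshold, lower in PRMT3-KD cells. The upper end of that sum came from CDH5, which had 140 and 146 counts in Ctrl against 129 and 722 after knockdown (adjusted p = 0.221, edgeR). The part of these genes in the results was not tested. The PRMT3-KD libraries differed from each other far more than the Ctrl libraries did, with a chi-square per degree of freedom of 66.7 against 1.41, where counting error alone gives about 1.

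Progression from G1 into S phase is driven by cyclin-dependent kinases. CDK4 and CDK6 bind D-type cyclins and start the phosphorylation of the RB protein, and CDK2 with cyclin E or cyclin A completes it, which releases E2F transcription factors. The INK4 proteins bind CDK4 and CDK6 and keep them from the D-type cyclins, whereas the CIP/KIP proteins bind cyclin-CDK complexes and block CDK2 in particular. Loss of the INK4 genes on the short arm of chromosome 9 is common in GBM, and so is gain of CDK4 or CDK6. RNA counts measure neither protein nor gene copy number.

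In PRMT3-KD cells the inhibitors did not move as a block. CDKN1B rose by 1.57-fold and CDKN2D fell by 1.55-fold, and they were the genes of the set past the threshold, which was an adjusted p under 0.05 in edgeR's quasi-likelihood test and a change of over 1.5-fold. With 1 of 7 higher, the set stood beside 4.97% of all genes tested, and with 1 of 7 lower it stood beside 5.97%. In either direction this was 2 of 7 genes, against 10.9% of all genes. By adjusted p alone, 4 of the 7 passed (CDKN1B higher, and CDKN1A, CDKN2D and CDK2 lower), where 17.3% of all genes did. The 2 groups did not overlap in any of the 7 genes, but the same held for 67.1% of all genes. The median log2 fold change of the 7 was -0.27, and that of all genes tested was 0.0055.

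**Figure D1:**
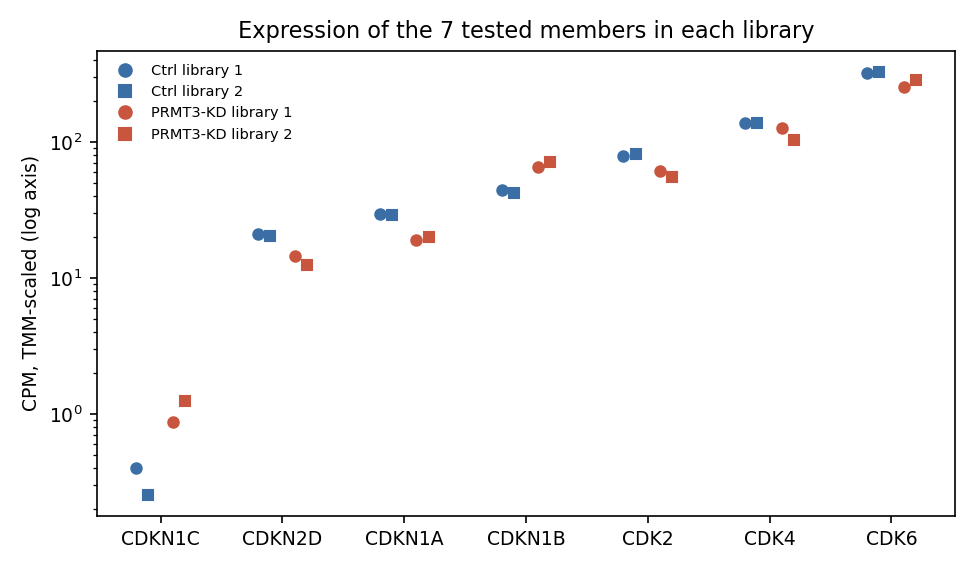
Expression of the 7 tested genes of the set in each library. The vertical axis is TMM-scaled CPM on a log axis, blue symbols are Ctrl libraries and red symbols are PRMT3-KD libraries. In each gene the PRMT3-KD values clear the Ctrl values, above for CDKN1B and CDKN1C and below for the other 5.

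CDKN1B (ENSG00000111276) encodes p27, which restrains CDK2 in cells that leave the cycle. It lies on chromosome 12 of GRCh37, which the submitters name as hg19 (chr12:12838432-12875303, + strand). Its counts were 1224 and 1160 in Ctrl against 1651 and 2009 in PRMT3-KD libraries. In CPM these were 44.2 and 42.2 against 65.0 and 70.7, so both PRMT3-KD libraries stood above both Ctrl libraries. The mean rose from 43.2 ± 1.42 to 67.9 ± 4.05 CPM (SD, n = 2 libraries each), with a log2 fold change of 0.65 (SE 0.0859, adjusted p = 0.0212, edgeR). Without PRMT3-KD library 2 the log2 fold change was 0.585561, only just over the 1.5-fold line at 0.584963 on that scale. The call was lost when either Ctrl library was left out (adjusted p 0.253 without Ctrl 1 and 0.291 without Ctrl 2), with log2 fold changes of 0.69 and 0.62.

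CDKN1A (ENSG00000124762, chr6:36644237-36655114, + strand) encodes p21, the inhibitor that p53 induces after DNA damage. The paper that reported these data describes more p21 protein on a western blot of PRMT3-knockdown U251 cells at 72 h. Protein is a measure unlike RNA, and no protein was measured here. CDKN1A had 815 and 793 counts in Ctrl against 483 and 563 in PRMT3-KD libraries. The CPM values were 29.4 and 28.8 against 19.0 and 19.8, with no overlap. Its mean went from 29.1 ± 0.413 to 19.4 ± 0.570 CPM (SD, n = 2 each), with an adjusted p of 0.0263 (edgeR). The log2 fold change of -0.584727 (SE 0.0895) lay just short of the 1.5-fold line at 0.584963 on that scale, so CDKN1A was not counted as past the threshold, whereas CDKN2D at -0.633 was. Leaving out PRMT3-KD library 2 took CDKN1A past that line (log2 fold change -0.62), as did scaling by library totals only and both other filters on low counts. Without Ctrl library 2 its log2 fold change was past the line too (-0.60). The adjusted p was 0.359 without Ctrl library 1 and 0.326 without Ctrl library 2.

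The 3′ UTR of CDKN1A also carries a sequence that earlier work on these libraries had picked out because genes with it tended to be lower in PRMT3-KD cells. This was CAGCTCA, so its presence here is a description and adds no support. In the canonical transcript of GENCODE 44 on GRCh37, CDKN1A holds 2 copies in a 3′ UTR of 1532 bases, both in exon 3 and both followed by an A (CAGCTCAA). The copy shown here lies at chr6:36654530-36654537 on the + strand. CDK6 holds 1 copy without that A in its much longer 3′ UTR of 10219 bases, in exon 8 (chr7:92241591-92241597, - strand). These 2 sites are shown with their flanks, because CDKN1A and CDK6 were the tested members that carry the sequence, 5′ to 3′ along the transcript, with the matching bases in capitals.
CDKN1A: tctacctcaggCAGCTCAAgcagcgaccgc
CDK6: ttacactgaagCAGCTCAtagcaagttaaa
No copy was present in the canonical 3′ UTRs of CDKN1B, CDKN1C, CDKN2D, CDK2 or CDK4, searched on the transcript strand. Of 12750 tested genes with a 3′ UTR, 17.4% held at least 1 copy of CAGCTCA, and their median log2 fold change was -0.11, against 0.03 in genes with none. A share of 3.43% held 2 or more copies, with a median of -0.15. CDKN1A was 1 of 17 genes (0.133%) with 2 or more copies of CAGCTCAA, whose median was -0.44 and of which 11 had a log2 fold change below 0. The canonical transcript of PRMT3 holds CAGCTCA at 1 place, before its 3′ UTR.

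CDKN1C (ENSG00000129757, chr11:2904443-2907005, - strand) is an imprinted gene that encodes the CIP/KIP inhibitor p57. It was scarce, with 11 and 7 counts in Ctrl against 22 and 35 counts in PRMT3-KD libraries. Exact Poisson 95% intervals, which cover counting error only, ran from 5.49 to 19.7 and from 2.81 to 14.4 for the Ctrl counts and from 13.8 to 33.3 and from 24.4 to 48.7 for the PRMT3-KD counts. The interval of PRMT3-KD library 1 thus overlapped both Ctrl intervals, and that of library 2 neither. The log2 fold change was 1.68 (SE 0.406) and the adjusted p 0.0580 (edgeR), so CDKN1C did not pass the test. It passed when either PRMT3-KD library was left out, a fit in which the spread came from the Ctrl pair alone. The log2 fold change was then 1.91 without library 1 and 1.39 without library 2.

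Among the INK4 genes, only CDKN2D was measured well above the counting floor. CDKN2D (ENSG00000129355, chr19:10677136-10679735, - strand) encodes p19, an inhibitor of CDK4 and CDK6. Its counts were 586 and 561 in Ctrl against 367 and 351 in PRMT3-KD libraries. This was 21.1 and 20.4 CPM against 14.4 and 12.4 CPM, so that the groups stood apart. The mean fell from 20.8 ± 0.533 to 13.4 ± 1.48 CPM (SD, n = 2 each), with a log2 fold change of -0.63 (SE 0.122, adjusted p = 0.0381, edgeR). The call was lost without Ctrl library 1 (adjusted p 0.381), without Ctrl library 2 (0.335), with library totals as the only scaling (0.0581) and without PRMT3-KD library 2, where the log2 fold change was -0.53.

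CDKN2A (ENSG00000147889, chr9:21967751-21995300, - strand), the gene of both p16 and p14ARF, had 2 and 0 counts in Ctrl against 0 and 2 counts in PRMT3-KD libraries. The 4 libraries together gave 4 counts, so that the exact Poisson 95% interval of its level ended at 0.0939 CPM. This was too few counts for a test, and a difference between the groups was not detectable at this depth. CDKN2B, the gene of p15 next to CDKN2A, and CDKN2C, the gene of p18 on chromosome 1, had no row in the table used here. Every row of the table had at least 1 count in some library, and 72.1% of 20175 protein-coding genes of GENCODE 44 had a row, so the lack of a row was common. CDKN2A and CDKN2B are also closely similar in sequence, and how reads that match both were counted is not given in the sources used here.

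The genes around these loci were then read, a step chosen after the counts of the members were seen. Within 1 Mb of CDKN2A lie 22 other protein-coding genes, of which 7 had a row and 4 had a Ctrl mean of over 1 CPM. MTAP, an enzyme of methionine salvage and the nearest gene on the interferon side at a gap of 30.1 kb, had 2344 and 2304 counts in Ctrl against 1820 and 2085 in PRMT3-KD libraries. On the other side CDKN2B had no row, and DMRTA1 at a gap of 451.5 kb had a Ctrl mean of 8.69 ± 0.775 CPM (SD, n = 2). KLHL9 and FOCAD, farther out beyond MTAP, had Ctrl means of 40.3 ± 0.566 and 39.8 ± 0.896 CPM (SD, n = 2 each). The near-zero level of CDKN2A thus stood between 2 expressed genes, MTAP and DMRTA1. Of the 16 interferon genes in this stretch 3 had a row, each with a mean of under 0.1 CPM in both groups.

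Around CDKN2C most genes without a row lay on the side of lower coordinates. Of all protein-coding genes of the annotation, 72.1% had a row. Of 12 other protein-coding genes within 1 Mb, all 5 on the side of lower coordinates (FAF1, DMRTA2, ELAVL4, AGBL4 and AL645730.2) had no row. FAF1, which takes part in FAS signalling and protein degradation, lies at a gap of 0.5 kb from CDKN2C. On the other side C1orf185 at 127.6 kb had no row either, and the next gene, RNF11 at 261.6 kb, had 4759 and 4735 counts in Ctrl against 2867 and 3783 in PRMT3-KD libraries. All 6 genes from RNF11 outward had a row, with Ctrl means from 0.217 CPM for TTC39A to 250.1 CPM for NRDC.

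**Figure D2:**
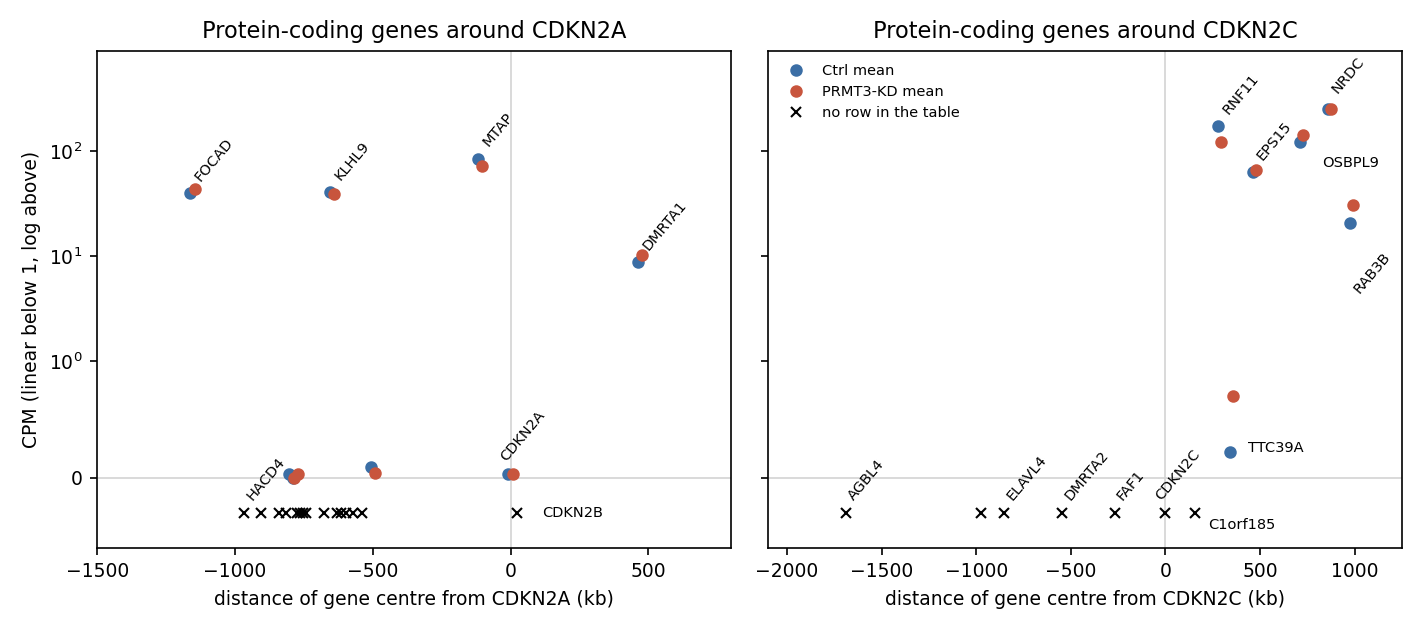
Expression of protein-coding genes around CDKN2A and CDKN2C. The horizontal axis is the distance of each gene's centre from that of CDKN2A (left) or CDKN2C (right) in kb, and the vertical axis is CPM, linear below 1 and logarithmic above. Blue and red points are Ctrl and PRMT3-KD means of 2 libraries, offset sideways for legibility, and crosses are genes with no row in the table. Interferon genes and AL645730.2 carry no name. CDKN2A sits near 0 between MTAP and DMRTA1, and CDKN2C and the 5 genes to its left are crosses.

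Per kilobase of exon, the 3 kinases were the most abundant RNAs of the set, and they were each lower in both knockdown libraries than in either Ctrl library. CDK2 (ENSG00000123374, chr12:56360565-56366573, + strand), the partner of cyclins E and A, had 2195 and 2238 counts in Ctrl against 1557 and 1570 in PRMT3-KD libraries. Its mean went from 80.3 ± 1.52 to 58.3 ± 4.26 CPM (SD, n = 2 each), with a log2 fold change of -0.46 (SE 0.0865, adjusted p = 0.0363, edgeR). The adjusted p passed but the change was under 1.5-fold, and the adjusted p no longer passed without Ctrl library 1 (0.375) or Ctrl library 2 (0.407).

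CDK4 (ENSG00000135446, chr12:58141510-58149796, - strand) had 3816 and 3769 counts in Ctrl against 3227 and 2916 in PRMT3-KD libraries, or 138 and 137 CPM against 127 and 103 CPM. The PRMT3-KD libraries differed more from each other than library 1 did from Ctrl, and the log2 fold change of -0.26 (SE 0.122) did not pass the test (adjusted p = 0.204, edgeR). CDK6 (ENSG00000105810, chr7:92234235-92465887, - strand) had 8925 and 9011 counts in Ctrl against 6454 and 8063 in PRMT3-KD libraries. At 322 and 328 CPM against 254 and 284 CPM, its log2 fold change was -0.27 (SE 0.0849), with an adjusted p of 0.0942 (edgeR). With 1 PRMT3-KD library left out, so that the spread came from the Ctrl pair alone, both passed by adjusted p but not by fold. For CDK4 the log2 fold change was then -0.42 without library 1 (adjusted p 2.02e-11) and -0.12 without library 2 (0.00577), and for CDK6 it was -0.19 (2.46e-06) and -0.36 (1.22e-08). Relative to Ctrl, CDK4 was lowest in PRMT3-KD library 2 and CDK6 in PRMT3-KD library 1.

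Exons of CDK4 overlap those of TSPAN31 on the opposite strand over 1369 of 3094 bases, and whether counting used strand is not given in the sources used here, so reads of the shared stretch cannot be assigned with certainty. TSPAN31, a tetraspanin, had 378 and 340 counts in Ctrl against 352 and 446 in PRMT3-KD libraries (log2 fold change 0.19, adjusted p = 0.352, edgeR). CDK2 shares 89 exon bases with PMEL, a melanosome gene with at most 8 counts in a library. It also shares 565 exon bases with the lncRNA gene ENSG00000258554, which had no row. The other overlapping genes on the opposite strand (DINOL at CDKN1A, CDKN2B-AS1 at CDKN2A, ENSG00000290102 at CDKN2C and CDK6-AS1 at CDK6) had no row either.

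**Figure D3:**
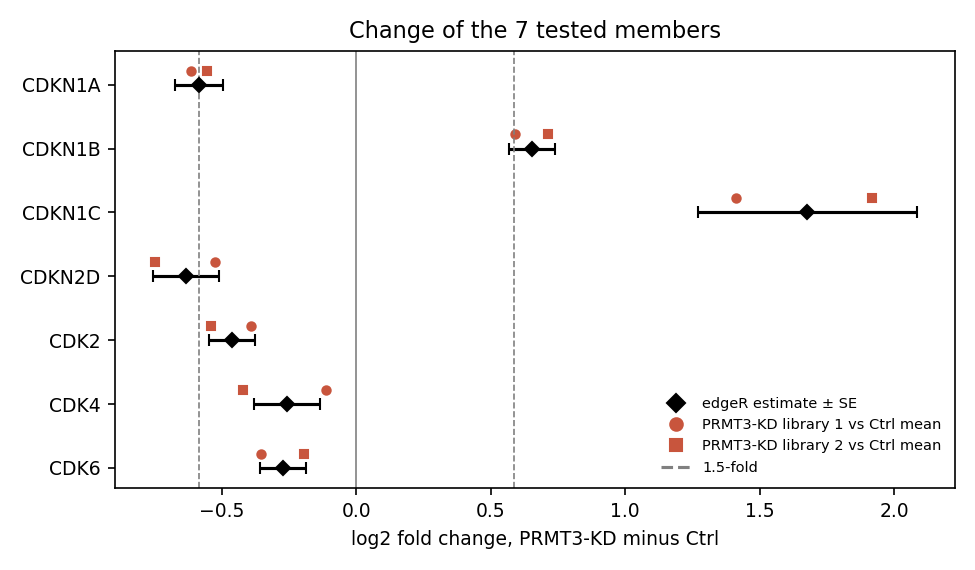
Change of the 7 tested genes of the set. Black diamonds are edgeR log2 fold changes (PRMT3-KD minus Ctrl) with bars of 1 SE, red circles and squares are PRMT3-KD libraries 1 and 2 against the Ctrl mean, and dashed lines mark 1.5-fold. CDKN1A lies on the left dashed line at -0.58, CDKN2D just beyond it at -0.63 and CDKN1B beyond the right one at 0.65.

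Levels of different genes were compared per kilobase of exon. In Ctrl cells the order in CPM per kb was CDK4 (44.4), CDK6 (26.5), CDK2 (20.7), CDKN2D (13.8), CDKN1A (9.72), CDKN1B (4.66), CDKN1C (0.131) and CDKN2A (0.0093). Neighbours in this order did not overlap between the Ctrl libraries. The order of CDK6 and CDK2 depends on the length used, since per kb of the longest transcript CDK2 stood at 30.9 and CDK6 at 27.9. In PRMT3-KD cells CDKN1B (7.02 and 7.64 CPM per kb) stood above CDKN1A (6.35 and 6.61), the reverse of their order in Ctrl cells. With no division by length, CDKN1B was the higher of the pair in all 4 libraries.

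The balance of inhibitors and kinases was then read within each library, where scaling between libraries drops out. With 2 libraries a group, the smallest p of a two-sided exact permutation test is 0.333, so these values are descriptions. CDKN1B made up 32.4% and 31.9% of the CIP/KIP sum in Ctrl against 51.2% and 51.8% in PRMT3-KD libraries (exact p = 0.333), and the 2 values of each group lay within 1 point of each other. With no division by length the shares were 59.7% and 59.2% against 76.6% and 77.1%, so the level of the share depends on the length used. This share was added after the counts were seen. The CIP/KIP sum per CDK2 was 0.724 and 0.682 in Ctrl against 0.870 and 1.04 in PRMT3-KD libraries (exact p = 0.333). Its log2 difference between groups was 0.44 per kb of exon and 0.75 with no division by length. A higher ratio does not by itself mean more CIP/KIP RNA, because CDK2 was lower after knockdown. Per kb of exon CDK2 stood at 20.4 and 20.9 in Ctrl against 15.8 and 14.2 in PRMT3-KD libraries. CDKN1A was lower too (9.82 and 9.62 against 6.35 and 6.61), and CDKN1B was higher (4.77 and 4.56 against 7.02 and 7.64).

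The INK4 sum, which was almost wholly CDKN2D, stood at 0.199 and 0.191 per unit of CDK4 plus CDK6 in Ctrl and at 0.155 and 0.146 in PRMT3-KD libraries (exact p = 0.333). The INK4 and CIP/KIP ratios thus differed between the groups in opposite directions. The CDK6 share of CDK4 plus CDK6 was 37.2% and 37.7% in Ctrl libraries and 33.6% and 41.1% in PRMT3-KD libraries (exact p = 1), with the PRMT3-KD values on both sides of Ctrl. Its difference of -0.052 points changed sign when Ctrl library 2 (0.21) or PRMT3-KD library 1 (3.73) was left out.

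**Figure D4:**
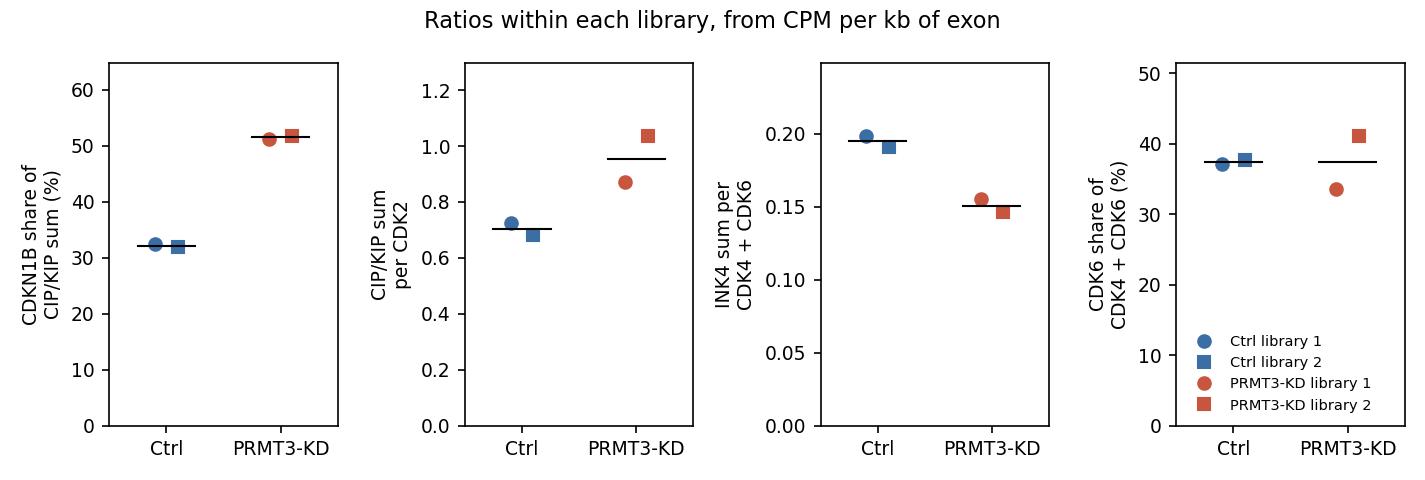
Ratios within each library from CPM per kb of exon. Panels show the CDKN1B share of the CIP/KIP sum in %, the CIP/KIP sum per CDK2, the INK4 sum per CDK4 plus CDK6, and the CDK6 share of CDK4 plus CDK6 in %. Symbols are libraries, black lines are group means and all vertical axes start at 0. The CDKN1B share is near 32% in Ctrl and near 51.5% in PRMT3-KD cells, and the CDK6 shares of PRMT3-KD libraries lie on both sides of those of Ctrl.

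Genes with the most similar pattern were sought by Euclidean distance of centred log2 CPM over the 4 libraries, among 9458 genes that averaged at least 10 CPM. Closest to CDKN1B were WDR26, CHIC2 and MYL12A (distances 0.0357, 0.0436 and 0.0458), with log2 fold changes of 0.67, 0.62 and 0.68. Closest to CDKN2D were PMM1, TRMT2A and PTPN23 (distances 0.017, 0.0256 and 0.027), with log2 fold changes of -0.64, -0.64 and -0.63. With 4 libraries in 2 groups, such likeness rests mostly on a similar difference between the groups.

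The cyclin partners of these kinases were the listed group that lay lowest. Of 7 genes 6 were tested (CCND2 had no row), all 6 had a log2 fold change below 0, 3 fell past the threshold and none rose. Of all 13172 genes tested, 5.97% fell past it and 6523 lay below 0. None was higher at an unadjusted p under 0.05 either, nor with DESeq2 or limma-voom. The list median was -0.73, beside 0.0055 for all genes. CCND3, a D-type cyclin that activates CDK4 and CDK6, fell from 103 ± 0.0937 to 61.3 ± 6.81 CPM (SD, n = 2 each), with a log2 fold change of -0.75 (adjusted p = 0.0223, edgeR). CCNA2, the cyclin A of S phase and mitosis, fell from 118 ± 1.66 to 71.8 ± 8.79 CPM (SD, n = 2 each), with a log2 fold change of -0.72 (adjusted p = 0.0256, edgeR). CCNA1, the germline cyclin A, was scarce, with 43 and 63 counts in Ctrl against 8 and 1 in PRMT3-KD libraries (log2 fold change -3.47, adjusted p = 0.0461, edgeR). CCND1 did not pass, at 522 and 530 CPM in Ctrl against 491 and 238 CPM in PRMT3-KD libraries (adjusted p = 0.340, edgeR). Its PRMT3-KD libraries were thus far apart.

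The RB and E2F list had 13 tested genes, with 3 lower past the threshold, none higher and a median of -0.20. Beside this, 5.97% of all genes tested were lower past it and 4.97% higher. At an unadjusted p under 0.05, 2 were higher and 6 lower (edgeR), where 4950 of all 13172 genes reached that cut in either direction. DESeq2 and limma-voom each passed 1 higher and 4 lower. In either direction they passed 14.3% and 12.8% of all genes. E2F2, an activator E2F, had 712 and 706 counts in Ctrl against 137 and 118 in PRMT3-KD libraries (adjusted p = 0.0140, edgeR). E2F8, a repressor E2F, went from 21.5 ± 2.22 to 7.20 ± 1.17 CPM (SD, n = 2 each), with a log2 fold change of -1.58 (adjusted p = 0.0182, edgeR). E2F3 fell from 62.5 ± 0.219 to 41.0 ± 0.423 CPM (SD, n = 2 each), with a log2 fold change of -0.61 (adjusted p = 0.0198, edgeR). RB1 itself did not pass, at 119 and 115 CPM (adjusted p = 0.608).

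Of 9 genes that activate CDKs or set their inhibitory phosphorylation, 1 rose past the threshold and none fell, and the median was 0.17. Beside this, 4.97% of all genes tested rose past it and 5.97% fell. At an unadjusted p under 0.05, 3 were higher and 3 lower (edgeR), where 4950 of all 13172 genes reached that cut in either direction. DESeq2 and limma-voom each passed 1 higher and 1 lower. In either direction they passed 14.3% and 12.8% of all genes. PKMYT1, the other inhibitory kinase of the list, had 1571 and 1520 counts in Ctrl against 794 and 452 in PRMT3-KD libraries and did not pass (log2 fold change -1.25, adjusted p = 0.0685, edgeR). The gene higher past the threshold was WEE1, the kinase that places the inhibitory phosphate on CDK1 and CDK2. It had 2041 and 2066 counts in Ctrl against 3730 and 3889 in PRMT3-KD libraries. The log2 difference was 0.93 (SE 0.0762, adjusted p = 0.0142, edgeR), and both PRMT3-KD libraries lay close together.

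Of 14 genes in the turnover of CIP/KIP proteins, 1 rose, 1 fell and the median was -0.11. As 4.97% of all genes tested rose and 5.97% fell past the threshold, these counts were near the background. CDC34, a ubiquitin-conjugating enzyme that works with SCF ligases, rose from 85.4 and 84.4 CPM to 164 and 121 CPM, so that its PRMT3-KD libraries were far apart (adjusted p = 0.0464, edgeR). CKS2, a small CDK-binding protein, fell from 85.8 ± 3.76 to 54.3 ± 5.15 CPM (SD, n = 2 each, adjusted p = 0.0257, edgeR).

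Among 17 other cyclin-dependent kinases the median was -0.14, with 1 higher and 2 lower past the threshold. Beside this, 4.97% of all genes tested were higher and 5.97% lower. CDK16, a kinase activated by cyclin Y, had 4802 and 4790 counts in Ctrl against 1736 and 1961 in PRMT3-KD libraries, with a log2 fold change of -1.34 (adjusted p = 0.0140, edgeR). CDK3 stood at 4.66 ± 0.716 and 1.63 ± 0.0814 CPM (SD, n = 2 each, adjusted p = 0.0246, edgeR). CDK8, the kinase of the Mediator complex, rose from 18.2 ± 0.580 to 28.5 ± 2.93 CPM (SD, n = 2 each, adjusted p = 0.0336, edgeR).

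Of 22 transcription regulators of CDK inhibitor genes, 1 fell and none rose, with a median of -0.15, where 5.97% of all genes fell, so this count was near the background. At an unadjusted p under 0.05, 4 were higher and 7 lower (edgeR), where 4950 of all 13172 genes reached that cut in either direction. DESeq2 and limma-voom each passed 3 lower and none higher. In either direction they passed 14.3% and 12.8% of all genes. The lower gene was MEN1, whose product menin acts with a histone methyltransferase at CDKN1B and CDKN2C, and it fell from 38.3 ± 0.622 to 22.7 ± 0.895 CPM (SD, n = 2 each), with a log2 fold change of -0.76 (adjusted p = 0.0192, edgeR). In the list of neighbours of CDKN2A and CDKN2B on chromosome 9p, 10 of 26 listed symbols had a row and 9 were tested (KIAA1797 and PTPLAD2, without a row, are older symbols of FOCAD and HACD4), with none past the threshold by edgeR, DESeq2 or limma-voom and a median of 0.12. At an unadjusted p under 0.05, 2 were higher and 1 lower (edgeR), beside the same 4950 of 13172 genes. Their log2 fold changes ran from -0.22 for MTAP to 0.46 for ELAVL2, with 0.41 for CAAP1, 0.33 for IFT74, 0.23 for DMRTA1, 0.12 for FOCAD, 0.07 for PLAA, 0.04 for MLLT3 and -0.05 for KLHL9. IFNE had 1 to 4 counts in a library.

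Over all lists, 13 of 90 tested genes were past the threshold (14.4%, against 10.9% of all genes), with 10 lower and 3 higher. The sequence CAGCTCA was present in the canonical 3′ UTR of 3 of the 10 lower genes (CDK16, E2F2 and MEN1), of none of the 3 higher genes and of 20 of the 90 tested. As it was picked from these same libraries because genes with it tended to be lower, these counts are a description and add no support.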

How the data were processed

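Gene expression was measured by RNA-seq in 2 Ctrl and 2 PRMT3-KD libraries, grouped by their labels. The authors deposited whole-number read counts per gene, without normalization. The submitters' processing notes name CASAVA, TopHat, Cufflinks, DESeq2 and hg19. Versions, the annotation, strand use and any filter on genes are not given in the sources used here. The table had 15576 entries, of which 1 duplicate was removed, and GENCODE 44 on GRCh37 held 99.9% of the identifiers.

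The fit used edgeR 4.0.16 in R 4.3.3 (filterByExpr with minimum count 10 and minimum total 15, TMM factors, glmQLFit and glmQLFTest), with Benjamini-Hochberg adjustment across 13172 genes. Past the threshold means more than 1.5-fold at an adjusted p under 0.05. CPM values are on the TMM scale, SDs are over 2 libraries, and the SE of a log2 fold change is its size over the root of the F statistic. Precision is limited by the total counts, at which 3 counts in a library equal 0.106 to 0.118 CPM. Levels between genes were divided by exon-union length. Scripts for genome features and figures used Python 3.11.15, pandas 2.3.3 and matplotlib 3.10.9. The test was tested on simulated counts with equal spread in both groups. The spread of these libraries was unequal, so the simulation does not cover it.

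The members and gene lists were chosen with earlier results of these data known. Named genes were the 10 members, PRMT3, at most 3 genes past the threshold in each direction per list, all 9p genes with a row, genes whose exons overlap a member, and the 3 genes most like the members with the largest rise and the largest fall past the threshold (CDKN1B and CDKN2D). CCND1, RB1, PKMYT1, the marker genes and the neighbours around CDKN2C were named after their values were seen. Alternatives were DESeq2 1.42.0, upper-quartile factors, library totals only, 2 other filters, a replicate block, limma-voom (limma 3.58.1) with group weights, no fold threshold, other gene lengths and leaving out each library. A listed marker gene and a sequence site are not reported here.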

Additional observations from a re-analysis of the deposited data

How the results depend on the processing

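No log2 fold change of the 7 tested members changed sign under any alternative run. Members past the threshold (2) numbered 2 or 3 with DESeq2, upper-quartile factors, library totals only, limma-voom and both other filters, and 4 with no fold threshold, where all genes came to 2278 and listed genes to 22. With library totals only, the 2 were not the same genes. There CDKN1A passed (adjusted p 0.0331, edgeR) and CDKN2D did not (0.0581). DESeq2 passed 20 listed genes in place of 13. Leaving out 1 library moved the members from 0 to 3, all genes from 0 to 3066 and listed genes from 0 to 31. The counts of 0 came without Ctrl library 1 or 2 (edgeR, with the lone library assumed to vary like the PRMT3-KD pair), where 1842 and 1868 genes, among them 3 members in each, and 25 and 24 listed genes still had an unadjusted p under 0.05. The replicate numbers share only a number: across genes the differences between libraries 1 and 2 correlated at 0.0222 between the groups. With the replicate number as a block, 1 member passed (CDKN1B), 1464 of all genes and 19 listed genes. Under that block CDKN2D had an adjusted p of 0.0506 and CDKN1A one of 0.0502. The CDK6 share difference was 0.0072 points by longest transcript and ran from -3.83 to 3.73 points over libraries left out. The CIP/KIP sum per CDK2 differed by 0.75 (log2) and the CDKN1B share by 17.4 points with no division by length, and that share by 19.9 points by longest transcript. The leave-one-out ranges were 0.31 to 0.56 and 19.1 to 19.7 for these, and -0.42 to -0.33 (log2) for the INK4 ratio. The leave-one-out fits of the lists and ratios, and the CDKN1B share, were chosen after seeing the data. Depth limits CDKN2A and CDKN1C, and 2 libraries a group limit every test.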
